A study of Homo sapiens with 2 samples.

Results

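Chromatin accessibility was examined at 10 genes of telomere maintenance: TERF1, TERF2, TERF2IP, TINF2, ACD, POT1, TERT, TERC, RTEL1 and RIF1. The genes were listed by name, and a peak belonged to them when its summit lay inside the gene body or within 50 kb of it on hg38. This gave 174 of 299673 hTBLC peaks and 199 of 295753 Primed peaks. Merging of overlapping peaks left 125 and 143 regions, out of 250859 and 242009 in the whole lists. The set was selected on earlier results of these libraries: TERF1 was picked for the regions called near it in the Primed list and not in the hTBLC list, and the other genes for their link to telomeres. All values below are therefore a description, and no test was made.

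The assay was ATAC-seq, which reads accessible DNA through the cuts of a transposase, on 50000 cells per library of WIBR3, a human embryonic stem cell line. The hTBLC library represents cells driven toward totipotency through repression of the spliceosome, and the Primed library represents the usual state of such a line. The labels give both as the same cell line and cell type, and they name no agent, dose or duration. Each group had 1 library, so the spread between replicates is unknown. In bulk libraries, fewer open cells and less open chromatin per cell cannot be told apart. Intervals in parentheses are exact 95% intervals for counting error only (Poisson for a pileup, binomial for a ratio), and Wilson intervals for shares. A Wilson interval takes regions as independent, which neighbouring regions at 1 locus need not be.

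Telomeres are the repeat-bearing ends of chromosomes. In human cells they are bound by shelterin, in which TERF1 and TERF2 bind the double-stranded repeat, POT1 binds the single-stranded overhang, and TINF2, ACD and TERF2IP join or accompany them. Telomerase adds the repeats, with TERT as its catalytic protein and TERC as its RNA template. RTEL1 is a helicase that unwinds telomeric loops, and RIF1 controls replication timing and repair of broken ends. Pluripotent stem cells keep telomerase active, and in the mouse Terf1 is highly expressed in such cells.

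Promoter sequences were available for 7 of the 10 genes in RefSeq's table of build GRCh38.p14, as 250 bases before and 50 bases after the start. Those of POT1 and TERT are shown because these genes were the ones whose 5′ end signal differed between the libraries beyond counting error. Those of TERF2IP and RIF1 are shown beside them because their 5′ end signal was close in the libraries. Capitals mark the GC box GGGCGG, the CCAAT box, spelt as in its name, the E-box CACGTG and the ETS core CCGGAA on either strand, and none of these matches overlapped another. TTAGGG, the telomere repeat unit, and ATTTGCAT, the octamer, were searched as well and were found in none of the 7 promoters.
POT1 (chr7:124929776-124930075, minus strand): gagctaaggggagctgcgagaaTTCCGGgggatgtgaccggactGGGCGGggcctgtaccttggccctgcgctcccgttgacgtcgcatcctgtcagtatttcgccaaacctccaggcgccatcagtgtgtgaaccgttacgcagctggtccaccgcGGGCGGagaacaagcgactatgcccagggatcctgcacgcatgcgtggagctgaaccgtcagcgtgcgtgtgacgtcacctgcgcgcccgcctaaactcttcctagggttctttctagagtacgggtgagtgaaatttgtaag
TERT (chr5:1295019-1295318, minus strand): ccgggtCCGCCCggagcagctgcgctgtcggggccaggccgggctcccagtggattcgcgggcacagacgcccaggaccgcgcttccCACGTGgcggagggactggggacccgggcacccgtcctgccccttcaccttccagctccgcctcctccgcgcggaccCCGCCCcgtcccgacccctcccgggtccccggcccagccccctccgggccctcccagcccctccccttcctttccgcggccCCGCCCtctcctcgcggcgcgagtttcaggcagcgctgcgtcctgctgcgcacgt
TERF2IP (chr16:75647523-75647822, plus strand): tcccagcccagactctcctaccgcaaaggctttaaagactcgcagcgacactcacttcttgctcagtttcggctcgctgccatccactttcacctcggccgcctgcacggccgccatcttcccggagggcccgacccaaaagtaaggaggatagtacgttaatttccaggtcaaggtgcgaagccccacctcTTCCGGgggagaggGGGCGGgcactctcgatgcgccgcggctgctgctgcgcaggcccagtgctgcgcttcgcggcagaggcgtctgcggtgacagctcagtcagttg
RIF1 (chr2:151409652-151409951, plus strand): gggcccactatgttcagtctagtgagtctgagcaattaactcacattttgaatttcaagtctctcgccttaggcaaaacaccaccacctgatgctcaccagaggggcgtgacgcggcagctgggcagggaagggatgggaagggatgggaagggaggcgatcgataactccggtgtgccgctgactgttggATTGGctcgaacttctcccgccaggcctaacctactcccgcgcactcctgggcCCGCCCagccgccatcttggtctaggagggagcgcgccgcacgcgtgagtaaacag

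The TERT promoter held 3 GC boxes and 1 E-box and had a G+C content of 77.3%, the highest of the 7. That of POT1 held 2 GC boxes and 1 ETS core, that of TERF2IP 1 of each, and that of RIF1 1 GC box and 1 CCAAT box. Of the 7 promoters, 6 held a GC box, against 15786 of all 35116 promoters in the table, and the exception was RTEL1. An ETS core was in 3 of 7 against 17.2%, a CCAAT box in 2 of 7 against 34.6%, and an E-box in 1 of 7 against 7.26%. The strongest summit fell inside the printed window in both libraries for POT1, TERF2IP and RIF1. For TERT it fell inside in hTBLC, 96 bp before the start, and outside in Primed, 357 bp before it. A match of letters is a description and no evidence of binding.

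The first comparison asked whether the 5′ ends themselves were open in both states. Each region is described by its summit pileup, the number of reads or fragments stacked at its strongest point, and by the ratio of the hTBLC to the Primed pileup after division by the relative depth of 1.09. For TERF1, TERF2 and TERC the table used gave no strand, so the gene end with the stronger signal was taken and is called the open gene end. A region within 1 kb of the 5′ end or open gene end was present in both libraries at 10 of 10 genes, where 77.3% of 15812 protein-coding gene starts were open in both, 2.52% in hTBLC alone and 3.33% in Primed alone. At TERF1, TERF2 and TERC the end was picked for its signal, so the count to set beside these shares is 7 of 7 genes with a listed start. The ratio's interval excluded 1 at 2 genes, above it at POT1 and below it at TERT. Among 11720 gene starts with a ratio, 17.4% had an interval above 1 and 13.7% one below 1, while at 68.9% it included 1, as it did at 8 of these 10 genes. The members' counts are near that background. Ratios at the 10 genes ran from 0.64 to 1.23 with a median of 0.97, and the quartiles over all gene starts were 0.82 and 1.24 with a median of 1.02.

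**Figure D1:**
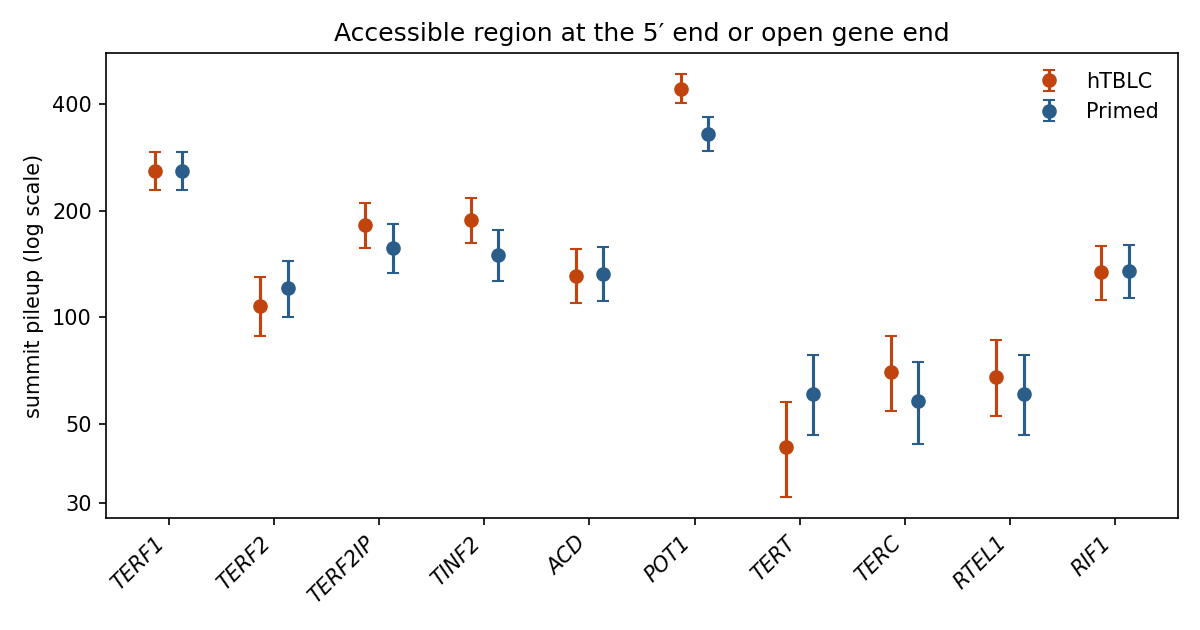
Summit pileup (log scale) of the strongest region within 1 kb of the 5′ end or open gene end of each gene, hTBLC left of Primed, with exact Poisson 95% intervals for counting error. POT1 is highest in both libraries, with 442 and 329, TERT is lowest in hTBLC with 43, and the intervals of the 2 libraries overlap at every gene except POT1.

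TERF1, on chromosome 8 at 73008864 to 73048123, encodes the shelterin subunit that binds the double-stranded repeat and limits telomere lengthening. Its open gene end had the same pileup in both libraries, 259 (228 to 293) in hTBLC and 259 (228 to 293) in Primed, with a scaled ratio of 0.91 (0.77 to 1.09). That level exceeded 94.4% of gene starts in hTBLC and 98.0% in Primed. The surrounding chromatin was less alike: 2 hTBLC-only and 17 Primed-only regions lay within 50 kb, beside 10 hTBLC regions that touched a Primed one and 9 Primed regions that touched an hTBLC one. The description that chose the gene, only Primed-only regions nearby, thus held for the gene body and for regions before the open end but not for the whole window. An excess of Primed-only regions at least this large occurred at 0.501% of 19974 protein-coding genes. The hTBLC-only share of library-only regions here was 10.53% (2.94 to 31.4), and 5.85% of 8639 protein-coding genes with 10 or more such regions had a share of 20% or lower.

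Inside the TERF1 body, beyond the open end, the hTBLC library had 0 regions and the Primed library had 6, and regions covered 1.31% of the body in hTBLC against 8.56% in Primed. As many Primed-only regions inside a body, with no hTBLC-only region, occurred at 0.31% of protein-coding genes. TERF1 was picked for its Primed-only regions, so this share and those given above for TERF1 only describe it. These 6 belonged to a run of 13 consecutive Primed-only regions that started 6692 bp from the open end and ended at 70707 bp, inside the neighbouring gene SBSPON. In that span hTBLC had 1 region, with a pileup of 8, and the 13 Primed pileups ranged from 9 to 41 with a median of 13. The strongest, with a pileup of 41 (29.4 to 55.6), lay at 73079255 to 73079789 and had a −log10 q of 31.2. The regions were thus weak beside the open end. For each, the highest pileup that the hTBLC list would leave uncalled was estimated from the local background in Primed. The lower Poisson bound exceeded it at 10 of all 17 Primed-only regions. Near the 10 genes together, TERF1 included, this held at 31 of 61 regions called in Primed alone. The reverse comparison gave 21 of 39, so this count does not set TERF1 apart. Background in hTBLC was not observed where it had no peak, so the count is no test of absence.

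Regions shared by the libraries near TERF1 went both ways. At 6793 bp before the open end the pileup was 25 in hTBLC and 75 in Primed, a scaled ratio of 0.30 (0.19 to 0.48). Next to it, at 14741 bp, the values were 12 in hTBLC and 37 in Primed, with a ratio of 0.30 (0.14 to 0.58). Further out, at 23134 bp, the order was the other one, with 46 in hTBLC and 21 in Primed and a ratio of 2.0 (1.17 to 3.53). Of 8 regions near TERF1 matched 1 to 1, 1 had an interval above 1 and 2 had one below 1.

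**Figure D2:**
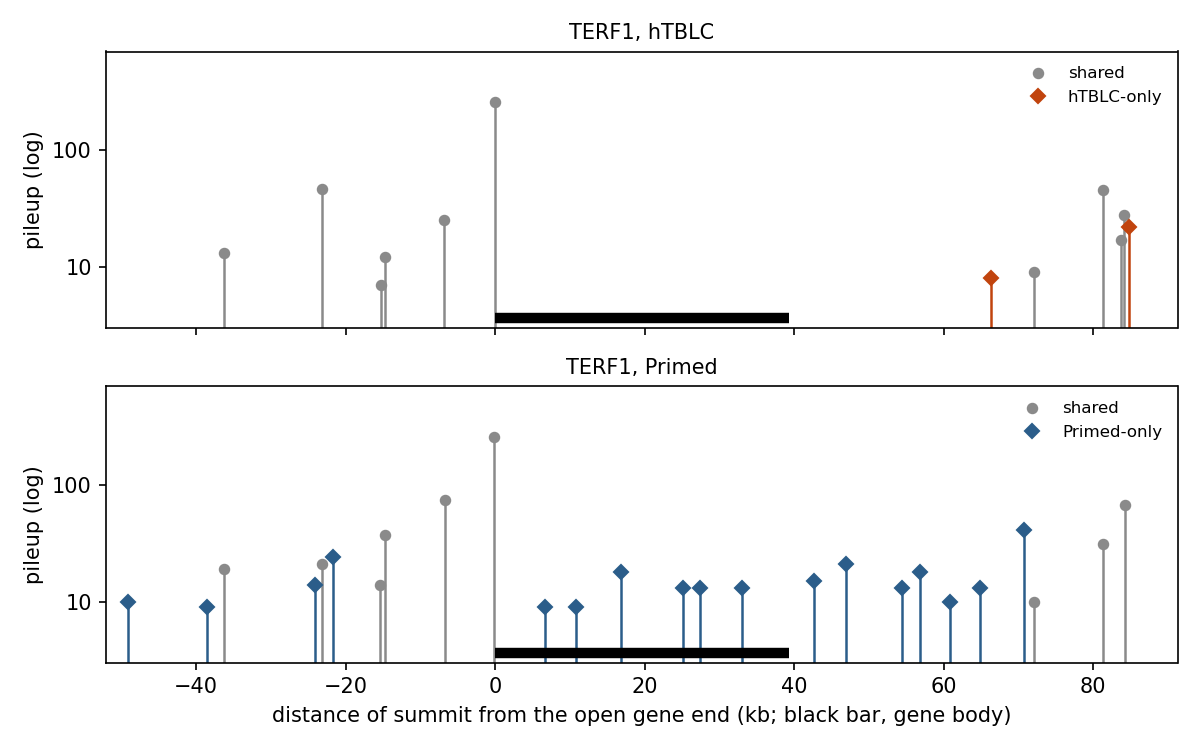
Regions within 50 kb of TERF1 in hTBLC (top) and Primed (bottom), by distance of the summit from the open gene end in kb and by summit pileup on a log scale, with the gene body as a black bar. The peak at the open end is equally high, 259 in both, and 13 consecutive Primed-only regions run through the gene body and past its other end, where hTBLC has 1 region.

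TERF2, which encodes the other double-stranded repeat binder and guards ends against being joined, lies on chromosome 16 at 69355567 to 69386007. Its open gene end had a pileup of 108 (88.6 to 130) in hTBLC and 121 (100 to 145) in Primed, a ratio of 0.82 (0.62 to 1.07). Library-only regions within 50 kb numbered 0 in hTBLC and 7 in Primed, those of Primed with pileups of 7 to 46. Of these 7, 3 lay inside the gene body and had pileups of 7 and 8, and the strongest stood at 46 in the bodies of COG8 and PDF. A shared region inside TERF2, 27288 bp from the open end, had 43 in hTBLC and 28 in Primed, with a ratio of 1.40 (0.85 to 2.34). The ratio's interval lay below 1 at 2 of the 9 shared regions here, those within 1 kb of the starts of VPS4A, with 0.74 (0.56 to 0.97), and of COG8 and NIP7, with 0.69 (0.52 to 0.93).

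TERF2IP, whose protein RAP1 binds TERF2, lies on chromosome 16 at 75647773 to 75657432 and starts beside KARS1, a lysyl-tRNA synthetase gene whose start lies within 1 kb of the same summit. The summit lay 9 bp before the TERF2IP start in hTBLC and 5 bp before it in Primed. Its pileup was 182 (157 to 210) in hTBLC and 157 (133 to 184) in Primed, a ratio of 1.06 (0.85 to 1.32). A smaller peak 857 bp into the gene had 50 in hTBLC and 30 in Primed, with a ratio of 1.52 (0.95 to 2.48). Each library had 2 regions of its own within 50 kb, and the strongest was an hTBLC-only region with a pileup of 36 lying 26452 bp before the start.

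TINF2 encodes the shelterin hub that holds the double-strand binders and the POT1 arm together. Its start, on chromosome 14 at 24242674, had a pileup of 188 (162 to 217) in hTBLC and 150 (127 to 176) in Primed, a ratio of 1.14 (0.92 to 1.43). Within 50 kb there were 3 hTBLC-only and 3 Primed-only regions, none with a pileup above 19. Of the 8 shared regions, 7 had a ratio above 1, and the interval excluded 1 at 2 of them. One lay at the starts of GMPR2 and NEDD8, with 80 in hTBLC and 35 in Primed and a ratio of 2.09 (1.39 to 3.20). Its strongest summit stood 10067 bp from the TINF2 start in hTBLC and 10550 bp in Primed, so that ratio compares different positions. The other lay at the start of MDP1, with 153 in hTBLC and 95 in Primed and a ratio of 1.47 (1.13 to 1.92).

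ACD encodes TPP1, which tethers POT1 and recruits telomerase, and lies on chromosome 16 at 67657512 to 67660260. The strongest summit near its start sat 581 bp before it in hTBLC and 604 bp before it in Primed, within 1 kb of the start of the neighbouring gene PARD6A, so the region cannot be given to 1 gene. Its pileup was 131 (110 to 155) in hTBLC and 133 (111 to 158) in Primed, a ratio of 0.90 (0.70 to 1.15). There was 1 hTBLC-only region nearby, with a pileup of 9, and 3 Primed-only regions. The strongest of these had a pileup of 64 (49.3 to 81.7) and lay 7818 bp beyond the gene inside CARMIL2. Of 5 shared regions matched 1 to 1, 2 had an interval below 1, with 11 in hTBLC and 30 in Primed at a ratio of 0.33 (0.15 to 0.69), and with 30 in hTBLC and 52 in Primed at a ratio of 0.53 (0.32 to 0.84).

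POT1, which protects the single-stranded overhang, lies on chromosome 7 at 124822386 to 124929825. Its start had the highest pileup of the 10 genes, above 99.7% of gene starts in hTBLC and 99.5% in Primed, with 442 (402 to 485) in hTBLC and 329 (294 to 367) in Primed. The scaled ratio was 1.23 (1.06 to 1.42), a value higher than at 73.9% of gene starts. The local background differed too, with 16.7 in hTBLC and 12.2 in Primed, so that the ratio of the authors' folds was 1.002. The locus also had the largest hTBLC-only excess of the 10, 12 hTBLC-only against 4 Primed-only regions, and an excess of 8 or more occurred at 3.03% of protein-coding genes. Its hTBLC-only share was 75% (50.5 to 89.8), and 4.25% of protein-coding genes with 10 or more library-only regions had a share that high. Of the 12, 2 lay inside the gene and 7 beyond its 3′ end. The strongest 3, with pileups of 33, 26 and 24, stood 21555, 13062 and 46760 bp beyond that end. Shared regions at POT1 did not follow the same order. Of 11 matched 1 to 1, 1 had an interval below 1, at 97184 bp into the gene, with 8 in hTBLC and 29 in Primed. Its ratio was 0.25 (0.10 to 0.56), and the region at the start was the one with an interval above 1.

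RIF1, on chromosome 2 at 151409902 to 151534435, encodes a large protein that acts in replication timing and end repair and is known in mouse embryonic stem cells for a role in telomere length. Its start had a pileup of 134 (112 to 159) in hTBLC and 135 (113 to 160) in Primed, a ratio of 0.91 (0.71 to 1.16). A further region, called in Primed alone, had 38 (26.9 to 52.2) and lay 967 bp before the start, the one library-only region at a 5′ end among the 10 genes. Within 50 kb there were 7 hTBLC-only and 13 Primed-only regions. Inside the gene the count was 2 hTBLC-only and 11 Primed-only regions, and 10 of those Primed-only regions formed a run from 26295 to 98449 bp with 0 hTBLC regions in between. Their pileups were 6 to 30 with a median of 9, close to the lowest pileup in the lists, which was 7 in hTBLC and 6 in Primed. The strongest, with 30 (20.2 to 42.8), lay 88480 bp into the gene at a position that NEB overlaps. NEB also overlapped the 2 hTBLC-only regions inside the gene and every Primed-only one from 78621 bp onward. Those regions cannot be given to 1 gene.

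**Figure D3:**
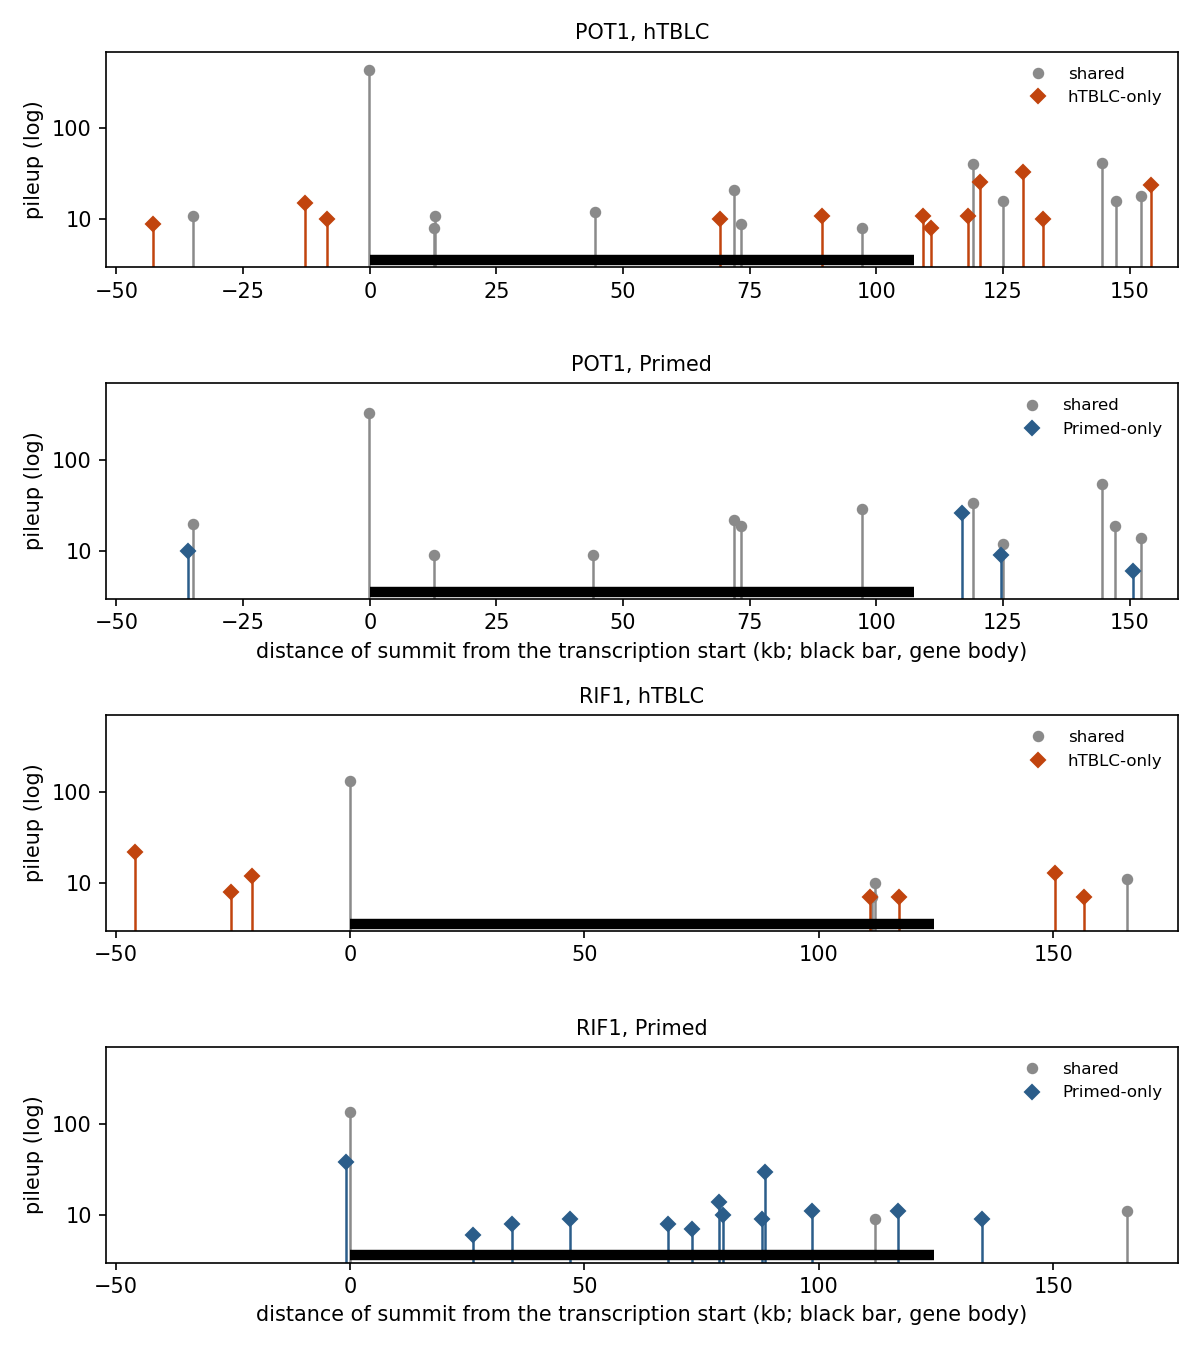
Regions within 50 kb of POT1 (upper pair) and RIF1 (lower pair), hTBLC above Primed in each pair, by distance of the summit from the transcription start in kb and by summit pileup on a log scale, with the gene body as a black bar. POT1 has 12 hTBLC-only regions against 4 Primed-only, most of them past its 3′ end, and RIF1 has 11 Primed-only regions inside its body against 2 hTBLC-only.

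TERT, the gene of the catalytic subunit of telomerase, lies on chromosome 5 at 1253167 to 1295068. Its start was the weakest of the 10 in hTBLC, with a pileup of 43 (31.1 to 57.9) in hTBLC and 61 (46.7 to 78.4) in Primed, and a ratio of 0.64 (0.43 to 0.97). Of all gene starts, 10.2% had a lower ratio. The strongest summit stood 96 bp before the start in hTBLC and 357 bp before it in Primed, so the ratio compares different positions. The region at the start was 982 bp wide in hTBLC and 1325 bp in Primed, and the local background beside it was 3.96 in hTBLC and 6.20 in Primed. Since the fold enrichment in the authors' lists divides by that background, it was nearly equal, 8.87 in hTBLC and 8.61 in Primed, and the ratio of the authors' folds, 1.03, lay on the other side of 1. Without scaling for depth the pileup ratio was 0.70 (0.47 to 1.06), and its interval then included 1.

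Around TERT there were 8 hTBLC-only and 6 Primed-only regions. The gene body held 0 hTBLC-only and 3 Primed-only regions, with Primed pileups of 7, 16 and 20. Of the 8 hTBLC-only regions, 4 stood beyond the 5′ end inside CLPTM1L, with pileups of 14 to 18, and 4 beyond the 3′ end, with 15 to 24. Of the Primed-only regions, 2 stood beyond the 5′ end, also inside CLPTM1L, with pileups of 34 (23.5 to 47.5) and 9, and 1 beyond the 3′ end, with 15. At 7 shared regions matched 1 to 1, the interval lay below 1 at 4, the start included, and above 1 at 1. That 1 region, 85945 bp from the start and outside the gene, had 50 in hTBLC and 18 in Primed, a ratio of 2.54 (1.45 to 4.62).

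TERC, the RNA template, is a short non-coding gene on chromosome 3 at 169764610 to 169765060. A region over its open end had a pileup of 70 (54.6 to 88.4) in hTBLC and 58 (44.0 to 74.98) in Primed, a ratio of 1.10 (0.77 to 1.59). Library-only regions within 50 kb numbered 1 in hTBLC and 5 in Primed. The strongest of the Primed-only ones, with a pileup of 80 (63.4 to 99.6), lay 4570 bp from the open end within 1 kb of the start of ACTRT3, and another with 62 (47.5 to 79.5) lay in LRRIQ4. A shared region 25782 bp from the open end, outside the gene, had 15 in hTBLC and 40 in Primed, with a ratio of 0.34 (0.18 to 0.63). In the other direction, the region at the starts of LRRC34 and LRRIQ4 had 138 in hTBLC and 89 in Primed, a ratio of 1.42 (1.08 to 1.87).

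RTEL1, the helicase gene, lies on chromosome 20 at 63657810 to 63696253. Its region sat inside the gene, with the summit 802 bp past the outermost start in hTBLC and 813 bp past it in Primed, so it lay outside the promoter window of that start. The pileup was 68 (52.8 to 86.2) in hTBLC and 61 (46.7 to 78.4) in Primed, a ratio of 1.02 (0.71 to 1.46). There were 3 hTBLC-only regions and 1 Primed-only region nearby. That Primed-only region, 7156 bp into the gene, had a pileup of 60 (45.8 to 77.2) and a fold enrichment of 19.1, the highest of any library-only region at the 10 genes. The interval lay below 1 at 3 of 11 shared regions matched 1 to 1. The lowest ratio, 0.22 (0.10 to 0.45), was at 43417 bp before the start, with 10 in hTBLC and 41 in Primed. Near the start of TNFRSF6B, a decoy receptor gene that follows RTEL1, the values were 37 in hTBLC and 80 in Primed, with a ratio of 0.42 (0.28 to 0.63).

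Of the regions near the 10 genes, 86 of 125 in hTBLC (68.8%) and 82 of 143 in Primed (57.3%) touched a region of the other library, against 64.1% and 62.9% near any protein-coding gene. The rest, 39 hTBLC-only and 61 Primed-only regions, gave an hTBLC-only share of 39.0% (30.02 to 48.8), where the share near any protein-coding gene was 48.9%. Without TERF1 there were 37 hTBLC-only and 44 Primed-only regions, a share of 45.7% (35.3 to 56.5), and without POT1 there were 27 and 57, a share of 32.1% (23.1 to 42.7). Primed-only regions outnumbered hTBLC-only ones at 5 genes, TERF1, TERF2, ACD, TERC and RIF1, as they did at 52.1% of protein-coding genes. The reverse held at 3 genes, POT1, TERT and RTEL1, and at 33.4% of all. Inside the gene bodies alone the share was 17.2% (7.60 to 34.5), with 5 hTBLC-only and 24 Primed-only regions, against 48.2% inside all protein-coding bodies. Of those 24, TERF1 supplied 6 and RIF1 11, and part of the RIF1 regions lay in NEB as well. Since many regions stood in runs at single genes, the Wilson intervals, which take regions as independent, cannot judge a difference from the background shares. Library-only regions were weak, with a median pileup of 12 in hTBLC and 11 in Primed, against 36 and 41 at the shared regions. Over the whole lists the medians were 12 at library-only and 24 at shared regions in each library. A −log10 q of 10 was reached by 6 hTBLC-only and 13 Primed-only regions, where 43.4% of such regions near any protein-coding gene were hTBLC-only.

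**Figure D4:**
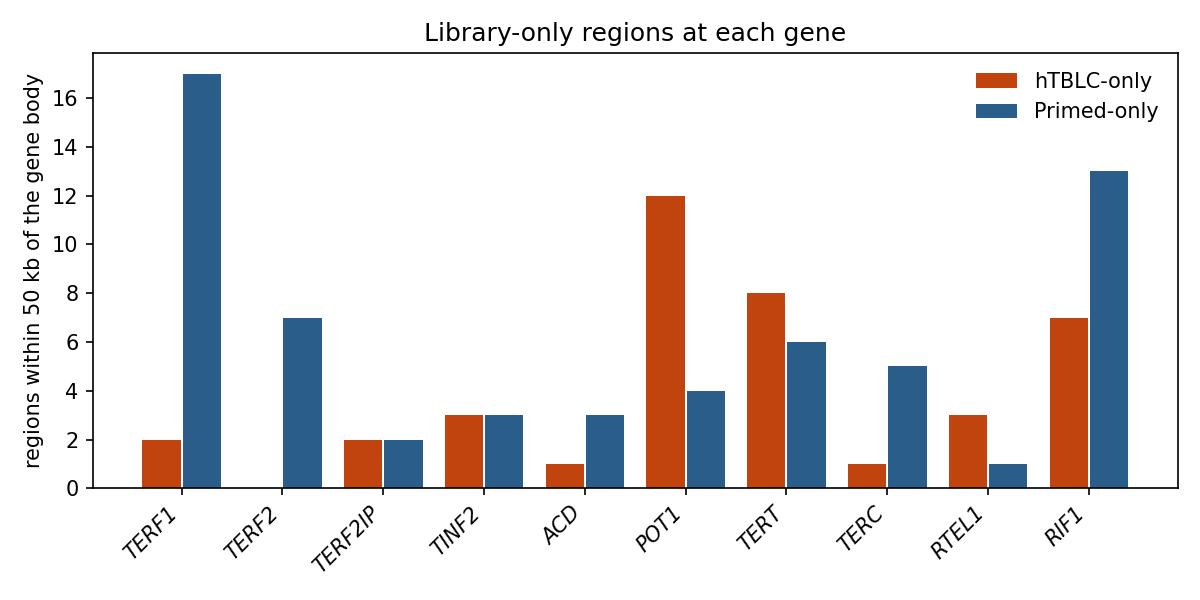
Number of regions found in 1 library alone within 50 kb of each gene body, hTBLC-only left of Primed-only. TERF1 has 2 and 17 and RIF1 7 and 13, while POT1 has the opposite order with 12 and 4.

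At the 72 shared regions matched 1 to 1 near the 10 genes, the median scaled ratio was 0.91, the same as the 0.91 over all such regions near protein-coding genes. The interval lay above 1 at 6 and below 1 at 15 of the 72, where 10.7% and 18.7% of 103656 shared regions did so. At the 50 kb limit itself the nearest summits were moderate in height. Just inside it lay a Primed-only region near ACD at 49448 bp with a pileup of 16 and an hTBLC-only region near TERT at 49425 bp with 18. Just outside lay a shared region near TERT, at 50027 bp in hTBLC with 38 and at 50057 bp in Primed with 52.

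A list of 50 other genes of telomere biology was then read at the 5′ end, 11 of them at the open gene end for want of strand. An open gene end need not be the 5′ end of its gene. Of the 50, 46 were open in both libraries, 0 in hTBLC alone, 2 in Primed alone and 2 in neither. Over all gene starts the shares were 77.3% in both, 2.52% in hTBLC alone, 3.33% in Primed alone and 16.8% in neither, and 2 of 50 in Primed alone is near that background. The 11 open gene ends were picked for their signal and were all open in both, so 46 of 50 is no like count beside 77.3%. The 4 genes not open in both were genes of meiosis or of the early embryo. TERB1 and MAJIN, which tie meiotic telomeres to the nuclear envelope, were open in Primed alone with pileups of 20 and 7, while their partner TERB2 and the embryonic telomere factor ZSCAN4 had no region at the start in either library. At the fourth meiotic gene, SPDYA, the pileup was 106 in hTBLC and 80 in Primed, a ratio of 1.21 (0.90 to 1.64).

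Ratios at the 46 genes had a median of 1.09, and the interval lay above 1 at 10 and below 1 at 4, beside 17.4% and 13.7% of all starts. Without scaling for depth, 13 lay above 1 and 0 below. When the median over all starts was set to 1 instead, 6 lay above and 5 below. The highest ratio was at FBXO4, an adaptor of the ubiquitin ligase that marks TERF1 for degradation, with 114 in hTBLC and 35 in Primed and a ratio of 2.97 (2.02 to 4.48). Its local background was 7.78 in hTBLC and 3.36 in Primed, and the ratio of the authors' folds was lower, 1.59. Such a fold ratio lay outside the pileup interval at 6 genes of the list, FBXO4 included. TEP1, a telomerase-associated protein gene, had 83 in hTBLC and 47 in Primed, with a ratio of 1.61 (1.11 to 2.36). SMCHD1, which encodes a chromatin protein that silences the inactive X chromosome, had 74 in hTBLC and 43 in Primed, with 1.57 (1.07 to 2.34). The strongest summit at TEP1 lay 298 bp past the start in hTBLC and 20 bp past it in Primed. At SMCHD1 it lay 27 bp past the start in hTBLC and 110 bp before it in Primed. The ratios at TEP1 and SMCHD1 thus compare different positions.

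The lowest ratios with an interval below 1 were at SLX4, the scaffold of structure-specific nucleases, with 41 in hTBLC and 61 in Primed and a ratio of 0.61 (0.40 to 0.93). NOP10, a protein of the telomerase RNA particle, had 52 in hTBLC and 71 in Primed, with 0.67 (0.46 to 0.97). PINX1, which binds TERF1 and inhibits telomerase, had 120 in hTBLC and 148 in Primed, with 0.74 (0.58 to 0.95). By role, the interval lay above 1 at 3 of 8 genes of telomere chromatin, 4 of 14 of end processing, 2 of 11 of the telomerase particle, 1 of 6 of the tankyrases and shelterin regulators, and 0 of 6 of end replication. It lay below 1 at 0 of 8 genes of telomere chromatin, 2 of 14 of end processing, 1 of 11 of the telomerase particle, 1 of 6 of the tankyrases and shelterin regulators, and 0 of 6 of end replication. With 17.4% above and 13.7% below over all starts, groups this small are not set apart by these counts.

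**Figure D5:**
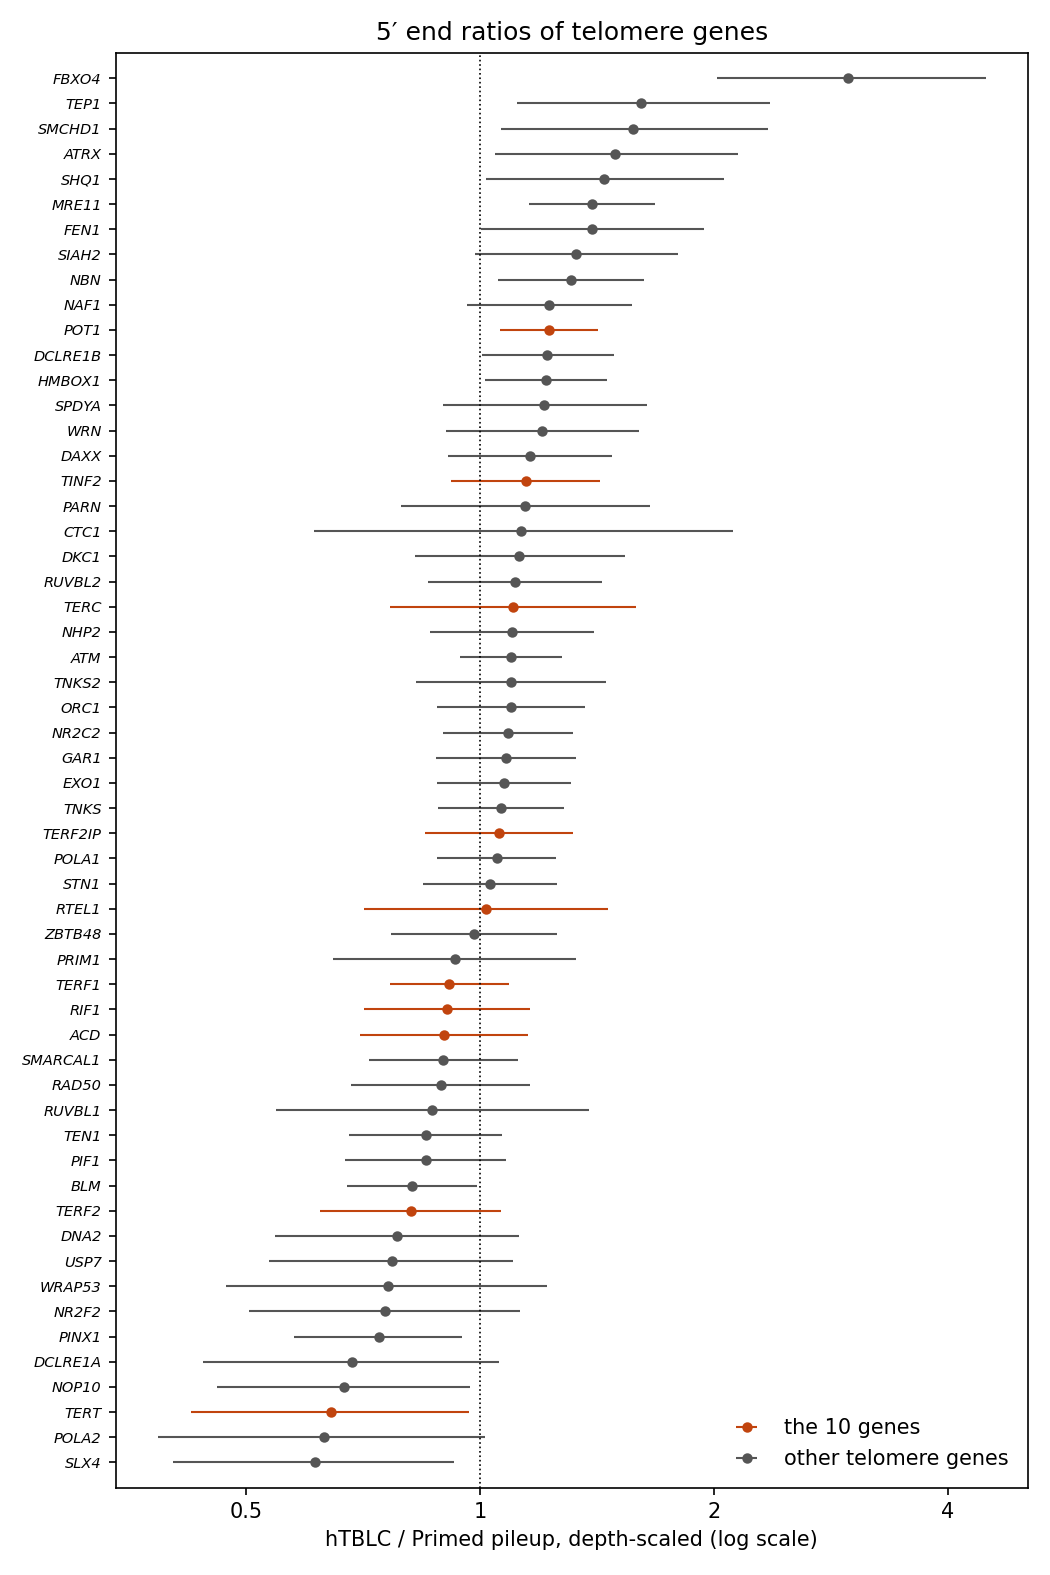
Depth-scaled ratio of hTBLC to Primed pileup (log scale) at the 5′ end or open gene end of 56 telomere genes with a ratio, with exact binomial 95% intervals for counting error. The 10 genes of the main list lie between 0.64 and 1.23, inside the range of the other genes, which runs from 0.61 to 2.97 at FBXO4.

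Facts of the libraries that bear on these values were few. The lowest background was 1.96 in hTBLC and 1.79 in Primed, and their ratio stands for relative depth, since total read numbers were not analysed here. The hTBLC list ended at a −log10 p of 2.83 and the Primed list at 2.0. Ranks without a line numbered 327 in hTBLC and 252 in Primed, and a region on such a line counts as absent, which was not tested for single regions. Of 7 pluripotency genes with an entry in the gene table, 6 were open at the 5′ end or gene end in hTBLC, all but POU5F1, and 7 in Primed. Of 8 genes of the 8-cell stage, 2 were open in hTBLC and 3 in Primed, and of 5 fibroblast genes 4 and 2. Over all gene starts, 77.3% were open in both libraries, 2.52% in hTBLC alone and 3.33% in Primed alone. Ends picked for signal served 4 of the 7, 3 of the 8 and 3 of the 5 genes, so these are no like counts. COL3A1 and POSTN, open in hTBLC alone, had pileups of 14 each, while COL1A1 had a ratio of 0.69 (0.50 to 0.96). The part of cell state or other cells in the results was not tested.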

How the data were processed

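ATAC-seq peak lists of 1 hTBLC and 1 Primed library were used, called per sample. The submitters' processing notes list MACS2, Bowtie2 and Picard, with hg38 as the build; how reads were shifted or deduplicated, and at which threshold peaks were called, is not given in the sources used here. Each deposited peak carries the authors' fold ratio over local background, −log10 p-value, −log10 q-value and a score, which was not used. Total depth is unknown.

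A whole pileup and local background were solved for each peak from the authors' fold and −log10 p (Poisson tail, tolerance 0.001), with whole values for 99.998% of hTBLC and 99.999% of Primed peaks. The step was tested on simulated data and recovered 100% of 20000 pileups per library. On chromosomes 1 to 22 and X, peaks that overlapped were joined into regions, and a region was shared when it overlapped the other library by 1 bp. Starts came from RefSeq promoters of GRCh38.p14, which shares hg38 coordinates, and are the outermost start where several are listed. A ratio is given only where both strongest regions overlap.

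The 10 genes, the list of 50 other telomere genes, the marker lists, the motifs and the naming rule were chosen with earlier results of these data known. The rule named the 10 genes, list genes open in 1 library, and the 3 highest and 3 lowest ratios whose interval excluded 1. TERB2, ZSCAN4, SPDYA, single marker genes and neighbouring genes were named after their values were seen. Alternatives were distances, thresholds, overlap rules, windows and scalings. Python 3.11.15, scipy 1.17.1 and pandas 2.3.3 were used.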

Additional observations from a re-analysis of the deposited data

How the results depend on the processing

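The hTBLC-only share of 39.0% moved outside its interval within 10 kb (27.3%) and inside gene bodies (17.2%). It also did so with both lists cut at a −log10 q of 5 (28.0%) or 10 (29.3%). Overlap was judged after such a cut, so a region whose partner fell below it counted as library-only. The share stayed inside its interval under 7 other settings, from 32.0% with the top 50000 regions to 47.0% within 200 kb. It also did so without each of the other 9 genes in turn, chosen after seeing the data, from 32.1% without POT1 to 41.9% without TERF2. Near TERF1, hTBLC-only and Primed-only regions numbered 0 and 8 within 10 kb, 14 and 26 within 200 kb, and 0 and 6 inside the body. They numbered 1 and 5 with both lists cut at a −log10 q of 10, and 1 and 4 with the top 50000 regions. Of the library-only regions there in the full lists, 0 in hTBLC and 2 in Primed reached a −log10 q of 10. Under the other 5 alternatives the Primed-only regions numbered 12 to 19. Of 50 single-gene alternatives at the 5′ ends, 45 left the reading unchanged. Many of these could not differ, since the 500 bp window gave the same ratios at all 10 genes and the 2500 bp window at all but TERC. The ratio of folds has no interval and was set against the pileup interval. At TERT the ratio of the authors' folds was 1.03 and turned the direction, which follows from its lower local background in hTBLC, and without scaling its interval included 1. Unscaled, TINF2 had 1.25 (1.01 to 1.56), its interval above 1. The ratio of folds was 1.31 at ACD and 1.002 at POT1, outside their pileup intervals. In the list of 50 genes, 44 to 46 were open in both libraries and 11 to 14 had an interval excluding 1. No paired analysis was possible because each group has 1 library. Total depth is unknown, and the lowest pileup called was 7 in hTBLC and 6 in Primed.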
